A study of Mus musculus with 4 samples.

Results

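RANKL, RANK and osteoprotegerin are the ligand, the receptor and the secreted decoy receptor of the pathway that makes osteoclasts, the cells that resorb bone. Their genes, Tnfsf11, Tnfrsf11a and Tnfrsf11b, were taken by symbol, and all 3 of 3 were found among the 22180 genes measured, each with 1 probe set. RNA from mouse synovium, the tissue lining the joint, had been measured on 4 Affymetrix MoGene 2.0 ST arrays, 1 pool of mice per array. There were 2 pools of 3 nonarthritic mice each and 2 pools of 10 mice each with serum transfer arthritis on day 10, labelled as the peak of inflammation. All mice were C57BL/6J males aged 12 weeks, and the synovium was taken at the ankle (tibiotalar region). Arthritic mice had received intraperitoneal arthritogenic serum, 150 microlitres on each of days 0, 2 and 7, whereas nonarthritic mice had received phosphate buffered saline. The labels name K/BxN as the serum source strain and serum transfer arthritis as the model for all 4 pools, and day 0 for the nonarthritic pools. Pool size and labelled day therefore differ between the groups along with arthritis, and these cannot be told apart.

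RANKL is made by stromal cells, osteoblast lineage cells and lymphocytes, and it binds RANK on osteoclast precursors of the monocyte lineage. RANK then recruits TRAF adaptor proteins, which switch on NF-kappa-B, AP-1 and finally NFATc1, the master transcription factor of the osteoclast. Osteoprotegerin binds RANKL and keeps it from RANK, so the balance of ligand and decoy is the usual summary of this pathway in inflamed joints, where bone is eroded. The comparison asks how this balance and the genes around it differed between inflamed and nonarthritic synovium.

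Promoter sequences from RefSeq (GRCm38.p6), printed 5′ to 3′ on the strand of the gene, are shown for the ligand, whose signal rose, and for its receptor, whose signal was not called changed. The Tnfsf11 stretch lies at chr14:78308044-78308293 on the minus strand and ends at the base before the start site. The Tnfrsf11a stretch lies at chr1:105780473-105780672 on the plus strand and ends 51 bases before the start site of the table, where another annotated transcript of the gene begins. Capitals mark matches to the motifs searched.
Tnfsf11: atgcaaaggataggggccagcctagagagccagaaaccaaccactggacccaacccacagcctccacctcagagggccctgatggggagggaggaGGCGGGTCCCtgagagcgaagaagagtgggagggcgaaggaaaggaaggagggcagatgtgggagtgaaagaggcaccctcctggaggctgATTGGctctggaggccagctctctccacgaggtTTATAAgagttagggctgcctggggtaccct
Tnfrsf11a: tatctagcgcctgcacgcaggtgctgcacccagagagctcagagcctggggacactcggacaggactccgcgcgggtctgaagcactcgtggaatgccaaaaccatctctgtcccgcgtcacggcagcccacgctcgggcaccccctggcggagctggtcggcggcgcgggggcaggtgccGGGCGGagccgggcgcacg

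In the 250 bases before its start, Tnfsf11 held a TATA box motif (TATAA) 30 bases before the start. The same letters matched on the other strand 1 base further up, overlapping the first match. A CCAAT box (CCAAT) lay on the other strand 64 bases before the start, and 1 match to an NF-kappa-B motif (GGGA, any 4 bases, then CC) lay 155 bases before it, also on the other strand. Over both strands, TATAA was found in 22.8%, CCAAT in 33.8% and the NF-kappa-B motif in 17.6% of 32851 RefSeq promoter windows of the same length. Tnfrsf11a had none of these and held 4 GC boxes (GGGCGG, in 32.7% of windows), of which 1 is in the stretch shown. The Tnfrsf11a window had 31 CG dinucleotides against 4 for Tnfsf11, with a median of 6 over all windows. AP-1 (TGANTCA), STAT (TTCNNNGAA), RUNX (TGTGGT), PU.1 (GAGGAA) and CACGTG had no match in either window.

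The ligand was higher and the decoy lower in arthritic synovium, while the receptor was not called changed. Of the 3, Tnfsf11 rose and Tnfrsf11b fell, calls being made at a limma adjusted p under 0.05, where 8.72% of all genes rose and 6.62% fell. For none of the 3 did the 2 groups overlap, which was so for 56.4% of all genes (30.2% with arthritis higher, as for 2 of the 3, and 26.1% with arthritis lower, as for 1). In bulk tissue, a change in the number of cells that make a transcript cannot be told apart from a change in the transcript per cell.

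Tnfsf11 encodes RANKL, the ligand. Its log2 signal was 7.38 and 6.21 in nonarthritic pools 1 and 2, and 9.35 and 9.53 in arthritic pools 1 and 2. Both arthritic pools were high and lay close together, whereas the nonarthritic pools stood 1.17 apart. The means were 6.80 ± 0.83 and 9.44 ± 0.13 (SD, n = 2 pools), a rise of 2.65 ± 0.33 (SE) on the log2 scale or 6.25-fold (95% interval 3.67 to 10.7, limma adjusted p = 0.00184). By the size of its log2 fold change it ranked 42 from the top of 22180 genes. Olfactory receptor genes, which this tissue is not known to use, served as a guide to background, and 95% of them read below 6.81 and 7.36 on the nonarthritic arrays 1 and 2. The nonarthritic reading of Tnfsf11 was above that level in pool 1 and below it in pool 2, so in pool 2 it was not shown to be above background. The fold change and the rank rest in part on that reading. Dropping nonarthritic pool 1 gave a log2 fold change of 3.23 and dropping nonarthritic pool 2 one of 2.06, both of which passed the test. Without arthritic pool 1 (2.74, adjusted p = 0.0856) or arthritic pool 2 (2.56, adjusted p = 0.117) it did not.

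Tnfrsf11b encodes osteoprotegerin, the soluble decoy. The log2 signal was 10.15 and 10.13 in the nonarthritic pools and 8.55 and 7.95 in the arthritic pools. The nonarthritic pools were nearly equal, and arthritic pool 2 was the lowest reading. From 10.14 ± 0.01 to 8.25 ± 0.42 (SD, n = 2 pools), the gene fell by 1.89 ± 0.21 (SE) on the log2 scale, or 3.71-fold (95% interval 2.63 to 5.22, limma adjusted p = 0.00114), and ranked 206 from the bottom of all genes. The log2 fold change was -2.19 without arthritic pool 1 and -1.59 without arthritic pool 2, and in the latter case it missed the threshold (adjusted p = 0.0565). It also missed it without nonarthritic pool 2, where the log2 fold change was -1.90 (adjusted p = 0.0744).

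Tnfrsf11a encodes RANK, the receptor on osteoclast precursors. Nonarthritic pools 1 and 2 read 9.10 and 8.79, and arthritic pools 1 and 2 read 9.20 and 9.41. The lowest arthritic reading was 0.10 above the highest nonarthritic one, so the groups were separated by less than the pools within a group. The means were 8.95 ± 0.22 and 9.31 ± 0.15 (SD, n = 2 pools), and the difference of 0.36 ± 0.18 (SE) on the log2 scale did not pass the test (limma adjusted p = 0.231). Its 95% interval ran from -0.05 to 0.77, so a rise of up to 1.71-fold was within the error.

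**Figure D1:**
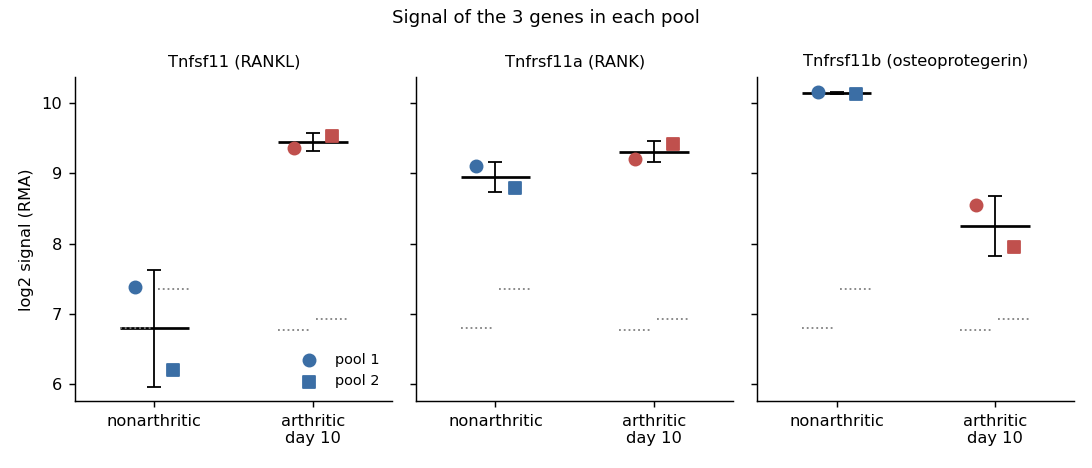
Log2 signal (vertical axis) of the 3 genes in each pool, with circles for pool 1 and squares for pool 2 of each group. Black lines are the means of 2 pools, bars are 1 SD and dotted lines mark the level under which 95% of olfactory receptor genes read on that array. Tnfsf11 goes from 7.38 and 6.21 to 9.35 and 9.53, Tnfrsf11b goes down from 10.15 and 10.13 to 8.55 and 7.95, and Tnfrsf11a stays between 8.79 and 9.41.

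The ligand to decoy ratio was taken within each pool as the log2 signal of Tnfsf11 less that of Tnfrsf11b. Probe sets differ in how strongly they respond, so the level of such a ratio, or its sign, has no meaning on its own and only its change between pools was read. The log2 ratio was -2.77 and -3.92 in nonarthritic pools 1 and 2, and 0.80 and 1.58 in arthritic pools 1 and 2. Every arthritic pool thus stood above every nonarthritic pool, by 3.57 at the least and 5.50 at the most. The mean change was 4.54 ± 0.69 (SE) on the log2 scale, or 23.2-fold, of which the rise of the ligand made up 58.3% and the fall of the decoy 41.7%. The size of this change and both shares rest in part on the Tnfsf11 reading of nonarthritic pool 2, which was under the background guide. A 2-sided exact permutation test gave p = 0.333, which is the smallest value that 2 pools against 2 allow. Leaving out 1 pool at a time gave changes of 3.96 without nonarthritic pool 2 to 5.11 without nonarthritic pool 1.

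The ligand to receptor log2 ratio was -1.72 and -2.58 in the nonarthritic pools and 0.15 and 0.12 in the arthritic pools. Its change was 2.29 ± 0.43 (SE), or 4.87-fold, and the arthritic pools agreed to within 0.03. The log2 ratio of receptor to decoy was -1.05 and -1.34 in nonarthritic pools and 0.65 and 1.46 in arthritic pools, a change of 2.25 ± 0.43 (SE) or 4.76-fold, of which the fall of the decoy made up 84.0%. These 3 ratios share their genes, and each of the other two also had an exact p of 0.333, so this permutation test could not pass for any of the 3.

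**Figure D2:**
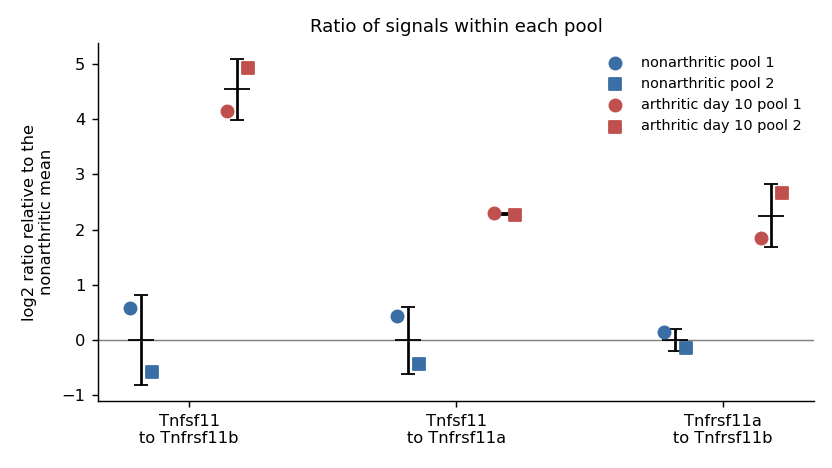
Log2 ratio of the signals of 2 genes within each pool (vertical axis), set to the mean of the nonarthritic pools. Circles are pool 1 and squares pool 2 of each group, horizontal marks the means of 2 pools and bars 1 SD. The ligand to decoy ratio of the arthritic pools lies on average 4.54 above that of the nonarthritic pools, and the other 2 ratios 2.29 and 2.25.

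The other genes of the pathway were grouped by role into 8 lists with 121 measured genes. Of these 121, 45 rose and 7 fell, which is 43.0% against 15.3% of all genes, and their median log2 fold change was 0.37 against 0.005 over all genes. The lists were chosen with earlier results of these data known, so these counts are a description.

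Among the inducers of RANKL and their receptors, 12 of 24 rose and 1 fell, with a median log2 fold change of 0.67. Il1b, an inflammatory cytokine, read 9.37 and 7.10 in the nonarthritic pools and 11.80 and 12.34 in the arthritic pools, a rise of 3.84 ± 0.60 (SE, limma adjusted p = 0.00492). Ptgs2, the enzyme that starts prostaglandin synthesis, rose by 3.02 ± 0.37 on the log2 scale. Il6, a cytokine that acts through gp130, rose by 2.69 ± 0.53 from nonarthritic readings of 6.61 and 4.83, neither of them over the background guide. Against the guide itself the rise of Il6 was at least 2.51-fold. In nonarthritic pool 2 Il1b and Ptgs2 were also under the guide. The log2 fold change of Il1b was 4.97 with nonarthritic pool 1 omitted and 2.70 with nonarthritic pool 2 omitted, and that of Il6 was 3.58 and 1.80 (adjusted p = 0.145). With a robust variance prior, neither Il1b (adjusted p = 0.119) nor Il6 (0.138) passed. Like Tnfsf11, these 3 genes read higher in nonarthritic pool 1 than in pool 2, and so did 17 of the 24 (median difference 0.17). This order was not particular to the list, since 92 of the 121 genes of all 8 lists showed it (median 0.15). Over all genes it held for 11950 of 22180 (median 0.03). The vitamin D receptor gene Vdr, whose ligand induces RANKL in stromal cells, read 7.86 and 8.11 in the nonarthritic and 9.94 and 10.02 in the arthritic pools (2.00 ± 0.17, adjusted p = 0.000357). Tnf rose by 0.88 ± 0.16, and the leukaemia inhibitory factor receptor gene Lifr fell by 0.90 ± 0.16 on the log2 scale. Il17a, the T cell cytokine, read 6.07 to 6.23 in all 4 pools, below the background guide (0.08, adjusted p = 0.797). Without nonarthritic pool 1, 4 of the list passed in limma, and without nonarthritic pool 2 it was 2. Without arthritic pool 1 it was 4 and without arthritic pool 2 it was 0 (13, 13, 16 and 12 at an unadjusted p under 0.05). The same 4 omissions are given in this sequence for each further list. With all 4 arrays, 3640 of 22180 genes were higher and 2823 lower at an unadjusted p under 0.05 in limma. That share is large, so list counts at this threshold are to be read beside it. For the omissions no such count over all genes was taken, so their unadjusted counts are a description only.

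Of 21 signal transducers below RANK, 5 rose and 1 fell, and the median of 0.005 equalled that of all genes. Nfkb2, the precursor of the noncanonical NF-kappa-B subunit p52, rose from 8.68 and 8.45 to 9.99 and 9.97 (1.42 ± 0.16, limma adjusted p = 0.00123). The kinase gene Src, which osteoclasts need to form their ruffled border, rose by 0.99 ± 0.17. Traf2 (0.89) and the TAK1 partner Tab1 (0.72) also rose, and Pik3r1, the regulatory subunit of phosphoinositide 3-kinase, fell by 1.06 ± 0.17 on the log2 scale. Traf6, the adaptor that carries most of the RANK signal, read 9.76 and 9.52 in nonarthritic and 9.26 and 9.28 in arthritic pools, a difference of -0.37 ± 0.16 that did not pass (adjusted p = 0.181). The 4 omissions left 2, 0, 0 and 0 calls in limma (8, 9, 9 and 6 at an unadjusted p under 0.05).

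Of 12 transcription factors and repressors of osteoclast formation, 6 rose and 2 fell (median 0.58). Nfatc1 read 10.50 and 10.24 in nonarthritic and 10.83 and 10.91 in arthritic pools, and its difference of 0.50 ± 0.17 did not pass (limma adjusted p = 0.086). The AP-1 genes Fos (1.53 ± 0.43, adjusted p = 0.0496) and Junb (1.04 ± 0.28, adjusted p = 0.0419) rose. Fos lay near the threshold, its pools stood over 1 log2 unit apart in both groups (9.33 and 8.17, then 9.72 and 10.83), and a second quantile normalization ended both calls. Fos also missed the threshold with averaged probe sets (adjusted p = 0.0503) and a robust variance prior (0.162). Jdp2, an AP-1 partner that favours osteoclast formation, rose by 1.27 ± 0.19. Prdm1, the repressor Blimp-1 that RANKL induces in precursors, rose by 1.02 ± 0.21, as did Irf8 (1.01 ± 0.23), which restrains osteoclast formation. Mitf, a transcription factor of osteoclast genes, fell by 1.15 ± 0.18 and Bcl6, a repressor of them, by 0.70 ± 0.17 on the log2 scale. Bcl6 lost its call when arrays were centred on their medians. After each omission 1, 0, 0 and 0 passed in limma (9, 6, 9 and 6 at an unadjusted p under 0.05).

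Receptors and adaptors with ITAM motifs give osteoclast precursors the costimulus they need beside RANKL. Of 13 such genes 7 rose and 0 fell in limma (8 and 1 at an unadjusted p under 0.05), with a median of 0.76. The osteoclast receptor gene Oscar read 6.34 in both nonarthritic pools, under the background guide, and 8.84 and 8.29 in the arthritic pools, a measured rise of 2.23 ± 0.21 (adjusted p = 0.000491) and at least 2.80-fold against the guide. Sirpb1a, a receptor that pairs with DAP12, rose by 2.21 ± 0.21, and Tyrobp, which encodes DAP12, by 1.21 ± 0.17. Camk4, a calcium-dependent kinase of the NFATc1 pathway, rose by 1.92 ± 0.22 on the log2 scale, from a reading under the guide in nonarthritic pool 2, and by 1.02 when its 2 probe sets were averaged. With the same omissions, 4, 0, 2 and 2 passed in limma (8, 8, 7 and 8 at an unadjusted p under 0.05).

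Of 14 products of osteoclasts, 8 rose and 0 fell in limma (10 and 0 at an unadjusted p under 0.05), with a median of 0.67. Mmp9, a gelatinase also made by neutrophils, read 9.01 and 7.88 in nonarthritic and 12.27 and 12.30 in arthritic pools (3.84 ± 0.32, adjusted p = 0.000358). Neutrophil markers stood beside this, since 5 of 5 rose and their mean log2 signal went from 7.90 and 7.57 to 10.72 and 10.88. Their part in the rise of Mmp9 was not tested. Atp6v0d2, a proton pump subunit used in precursor fusion, rose by 1.84 ± 0.19, and the fusion gene Ocstamp by 1.69 ± 0.23. Acp5, which encodes the tartrate-resistant acid phosphatase by which osteoclasts are stained, read 10.26 and 9.96, then 11.58 and 11.48 (1.42 ± 0.17, adjusted p = 0.00153). Calcr, the calcitonin receptor of mature osteoclasts, read 6.42 to 6.68 in all pools, below the background guide (-0.01 ± 0.17, adjusted p = 0.979). On omission of each pool, 5, 2, 2 and 0 of the products passed in limma (10, 8, 8 and 9 at an unadjusted p under 0.05).

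Extracellular partners comprised the M-CSF axis that keeps precursors alive, other binding partners of the 3 proteins, and proteases that shed RANKL. The list also held Tnfrsf10b, a receptor for TRAIL and not for any of the 3 proteins. Of 11, 3 rose and 0 fell in limma (4 and 1 at an unadjusted p under 0.05), with a median of 0.05. Mmp14, a membrane metalloproteinase that can release RANKL from the cell surface, rose from 11.79 and 11.29 to 13.11 and 12.88 (1.46 ± 0.21, adjusted p = 0.00304). Tnfrsf10b, the receptor for TRAIL, rose by 1.17 ± 0.21 and the syndecan gene Sdc1 by 1.16 ± 0.19. Tnfsf10, which encodes TRAIL, a further ligand of osteoprotegerin, read 8.35 and 8.21 and then 8.94 and 7.71, so the arthritic pools fell on both sides of the nonarthritic ones (0.05 ± 0.35, adjusted p = 0.955). Lgr4, another receptor for RANKL, was at -0.25 ± 0.17 (adjusted p = 0.396). The growth factor gene Csf1 was at -0.56 ± 0.16 (adjusted p = 0.0511), and passed as lower with the dim-gene filter (0.029) and under 3 other settings. Its receptor gene Csf1r read 11.42 to 11.70 in all 4 pools (-0.11 ± 0.16, adjusted p = 0.727). Omitting each pool gave 3, 0, 0 and 0 calls in limma (5, 4, 5 and 5 at an unadjusted p under 0.05).

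Regulators of osteoprotegerin held 1 gene that rose and 3 that fell, of 12 (median 0.18). Bmp2, a bone morphogenetic protein, read 9.49 and 9.09 in nonarthritic and 8.47 and 7.80 in arthritic pools (-1.16 ± 0.25, limma adjusted p = 0.0178). Ebf2, a transcription factor that drives osteoprotegerin in osteoblast precursors, fell by 0.97 ± 0.16, and the oestrogen receptor gene Esr1 by 0.85 ± 0.18 on the log2 scale. Like Tnfrsf11b, all 3 genes that fell were lower in arthritic pool 2 than in arthritic pool 1. This order held for 10 of the 12, including genes that did not fall, and for 10848 of all 22180 genes. The Wnt5a receptor gene Ror2 rose by 0.73 ± 0.18. Wnt16, a Wnt ligand that raises osteoprotegerin in bone, read 7.76 and 7.38, then 8.50 and 7.89 (0.63 ± 0.24, adjusted p = 0.121). With any 1 pool left out, 0 of the 12 passed in limma (5, 4, 3 and 6 at an unadjusted p under 0.05).

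Brakes on osteoclast formation, the interferon, interleukin-4, interleukin-10 and semaphorin pathways, had 3 members of 14 that rose and 0 that fell in limma (4 and 1 at an unadjusted p under 0.05; median -0.01). All 3 were receptor genes: Il4ra (1.72 ± 0.22, adjusted p = 0.00185), Ifnar1 (0.74 ± 0.16) and the semaphorin receptor gene Plxna1 (0.68 ± 0.16). Plxna1 lost its call when the probe sets of a gene were averaged. The calls made up 21.4% of the list, against 15.3% of all genes. Ligand genes were not called: Ifnb1, Ifng, Il4 and Il10 read under the background guide on all 4 arrays, while Il13 and Il27 read above it. The semaphorin gene Sema3a was at -0.68 ± 0.20 (limma adjusted p = 0.0595). Omission of each pool left 1, 0, 1 and 0, as tested in limma (3, 4, 5 and 3 at an unadjusted p under 0.05).

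**Figure D3:**
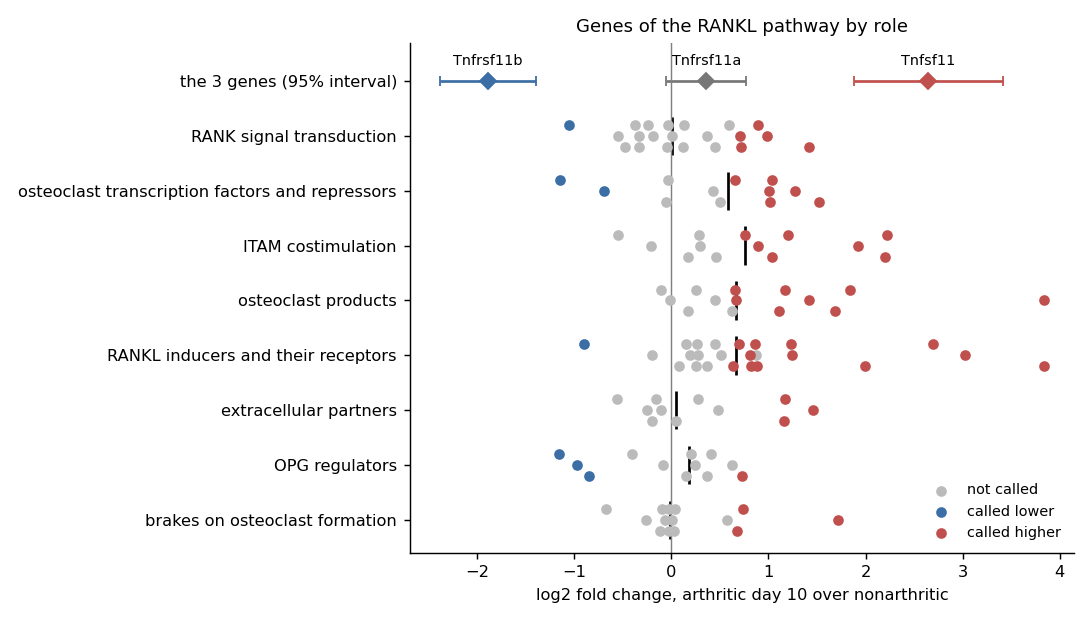
Log2 fold change of arthritic over nonarthritic synovium (horizontal axis) for the 3 genes, with 95% intervals, and for 121 genes of the pathway in 8 lists, 1 dot per gene. Red dots were called higher, blue dots lower and grey dots not called, and black lines are list medians. The medians run from -0.01 for brakes on osteoclast formation to 0.76 for ITAM costimulation.

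Markers of cells that make or bind the 3 proteins were set beside them. For comparison with the counts below, 8.72% of all genes rose and 6.62% fell. At an unadjusted p under 0.05 in limma, 3640 of all 22180 genes were higher and 2823 lower. Osteoblast and osteocyte markers, a known source of both RANKL and osteoprotegerin, fell in 4 of 8 cases and rose in 0 in limma (7 and 0 at an unadjusted p under 0.05). Their mean log2 signal was 8.59 and 8.31 in nonarthritic and 7.70 and 7.19 in arthritic pools, with arthritic pool 2 lowest, as for Tnfrsf11b. Sost, the osteocyte Wnt inhibitor, fell by 1.22 on the log2 scale. Phex, a mineralisation gene of osteocytes, was under the background guide in both arthritic pools and fell at least 2.21-fold against it. Dmp1, another of the 4, was under the guide on all 4 arrays. Skeletal muscle markers fell in 6 of 6 cases (mean log2 signal 11.53 and 11.91, then 8.94 and 8.44) and adipocyte markers in 4 of 4 (10.72 and 10.61, then 8.45 and 7.98). Arthritic pool 2 was lowest for both of these lists too. The part of these cells in the fall of Tnfrsf11b was not tested.

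Synovial fibroblast markers, which report on another source of RANKL, split with 4 of 10 higher and 2 lower. The cadherin gene Cdh11 rose by 1.70. Clic5 fell by 2.48 and Htra4 by 1.89 on the log2 scale, both known from lining fibroblasts. In contrast, Prg4, which encodes the lubricin of the lining, read 13.27 to 13.66 in all pools and was not called (-0.265, limma adjusted p = 0.343). Clic5 and Htra4 were lower in arthritic pool 2 than in arthritic pool 1, as Tnfrsf11b was. This order held for 6 of the 10 markers, the risen Cdh11 among them, and for 10848 of all 22180 genes. T cell markers, a further source of RANKL, had 1 of 7 higher and 0 lower in limma (3 and 0 at an unadjusted p under 0.05), and their mean log2 signal was 7.19 and 7.28, then 7.70 and 7.68. The gene that rose was Cd4, which some macrophages also carry, and Cd3e was at 0.26, Cd3g at 0.45 and Cd3d at 0.22, none of them called. Markers of B cells, another known source of osteoprotegerin, fell in 2 of 4 cases. Chondrocyte markers, a further source of RANKL and osteoprotegerin, rose in 5 of 8 cases and fell in 1. The proteoglycan gene Acan rose by 2.03, and Col10a1, the collagen of hypertrophic chondrocytes, fell by 3.93 on the log2 scale. Macrophage markers, the lineage that carries RANK, rose in 2 of 7 cases with a median of 0.48. Of 5 endothelial and smooth muscle markers, 1 rose and 1 fell (median 0.03). Osteoclast markers, all of which are also in the lists above, rose in 6 of 8 cases and fell in 0 (median 1.26). The part of these cells in the values of the 3 genes was not tested.

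Genes next to the 3 in the RefSeq table gave no call. The 2 measured genes on each side were Fam216b, Mir1971, Akap11 and Dgkh for Tnfsf11, with log2 fold changes of -0.35 to 0.56. For Tnfrsf11a they were Pign, Relch, Gm7160 and Zcchc2 (-0.71 to 0.34), and for Tnfrsf11b Samd12, Mir28c, Gm5215 and Colec10 (-0.68 to 0.70). None of these 12 passed in limma, where 15.3% of all genes did. Of the 12, 4 had an unadjusted p under 0.05 (Dgkh, Gm7160, Mir28c and Gm5215). Over all 22180 genes, 3640 were higher and 2823 lower at that threshold. With so few neighbours, these counts are a description and do not set them apart from other genes. Dgkh, Gm7160 and Gm5215 passed under at least 1 other setting.

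Profiles most like each gene were found by the distance between log2 values over the 4 arrays, each profile centred on its own mean, among 17320 genes. Closest to Tnfsf11 were the chemokine gene Ccl3 (distance 0.25), the stromelysin gene Mmp3 (0.27), Lrrc15, a membrane protein of activated fibroblasts (0.31), Crabp2, a retinoic acid binding protein (0.35), and the lectin receptor gene Clec4n (0.39). Each of these 5 read higher in nonarthritic pool 1 than in pool 2, as Tnfsf11 did. Closest to Tnfrsf11b were Rgs18 (0.10), the lining marker Htra4, a protease gene (0.11), Bmp6 (0.13), Qpct (0.13) and Gpm6a (0.14), each lower in arthritic pool 2 than in arthritic pool 1. Those closest to Tnfrsf11a, Tars, H4c12, Pot1b, Eefsec and Vav2, lay 0.014 to 0.041 from it and none was called. With 4 arrays, likeness mostly reflects the size of the group difference and which pool of a group was higher.

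**Figure D4:**
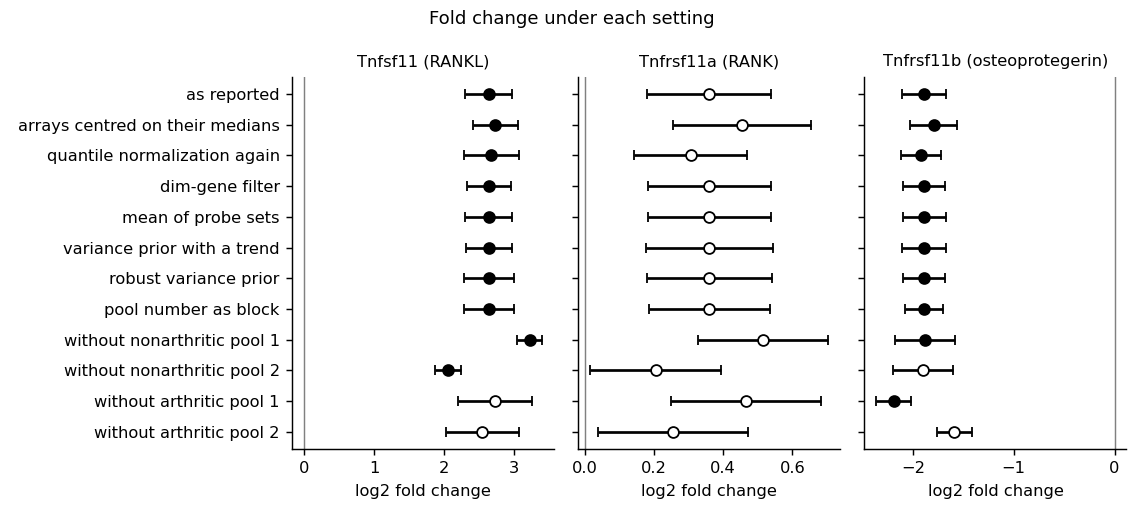
Log2 fold change (horizontal axis, scaled separately for each gene) of the 3 genes as reported and under 11 other settings. Bars are 1 SE, filled circles passed the test and open circles did not. Tnfsf11 stays between 2.06 and 3.23, Tnfrsf11b between -2.19 and -1.59 and Tnfrsf11a between 0.20 and 0.52.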

How the data were processed

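The values are the log2 signals deposited by the authors, 1 per probe set and array. RMA, with Affymetrix Power Tools and Affymetrix Expression Console, is named in the submitters' processing notes, with no version. That the scale is log2 was judged from the range of the values, 2.89 to 14.27. Of 41345 probe sets, 23521 had exactly 1 gene symbol in the platform table. Each of 22180 genes was represented by its brightest probe set on average.

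Groups were compared with limma 3.58.1 in R 4.3.3 (lmFit and eBayes, constant variance prior, 2-sided, no block), adjusted by Benjamini-Hochberg over all 22180 genes. Genes with an adjusted p under 0.05 were said to rise or fall. Residual degrees of freedom were 2, to which the variance prior contributed a further 5.98. The fit was also run on simulated data in which all genes had the same SD, unlike these data. That run does not bear on genes whose pools lay far apart. Ratios had an exact permutation test. The SE of a ratio came from the SDs of the 2 pools per group alone, without the variance prior that enters the SE of single genes. The design text calls the pools biological replicates, so p-values measure spread between pools, not mice. The number of arrays limits the precision. The members and lists were chosen with earlier results of these data known.

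Named genes were the 3 members, up to 4 higher and 4 lower called genes per list with the largest log2 fold change, 12 preset genes, 2 neighbours on each side of each member and the 5 nearest profiles. Marker genes and genes singled out beyond these were chosen after their values were seen. Alternatives were median centring, quantile normalization again, a dim-gene filter (mean signal over 6.97, the 95% level of olfactory receptor genes), averaged probe sets, 2 other variance priors, the pool number as a block and each pool left out.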

Additional observations from a re-analysis of the deposited data

How the results depend on the processing

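None of the 11 alternatives reversed the direction of Tnfsf11, Tnfrsf11a or Tnfrsf11b, nor of the 46 genes called among 72 others named. The 3 ratios, computed under 7 of them (centring, quantile normalization, averaged probe sets and each pool left out), kept their direction. Each of those 46 lost its call without at least 1 pool, and 7 lost it under an alternative that kept all arrays (Bcl6, Fos, Il1b, Il6, Irf8, Junb and Plxna1). With all arrays kept, Tnfsf11 and Tnfrsf11b passed under each of 7 alternatives, and Tnfrsf11a under none. Leaving out 1 pool gave 2.06 to 3.23 for Tnfsf11, -2.19 to -1.59 for Tnfrsf11b, 47 to 637 genes called higher and 105 to 584 called lower. Calls were then 0 to 4 for ITAM costimulation, 0 to 4 for RANKL inducers, 0 to 5 for osteoclast products, 0 to 3 for extracellular partners, 0 to 2 for RANK signal transduction, 0 to 1 for transcription factors, 0 to 1 for brakes and 0 for osteoprotegerin regulators. Such a fit has fewer residual degrees of freedom and assumes that the lone pool varies like the other group. Same-numbered pools deviated together only weakly (correlation 0.18 over genes), and the labels do not say that numbers pair them. With the pool number as a replicate block, Tnfsf11 (adjusted p = 0.033) and Tnfrsf11b (0.0237) still passed, 1216 genes were called higher, 6 RANKL inducers and 3 transcription factors were called. Centring arrays on their medians made 67.1% of calls higher, against 56.8%. Signal over background limits the low nonarthritic reading of Tnfsf11.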

Other observations

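Genes of the tumour necrosis factor superfamily were taken by symbols that start with Tnfsf or Tnfrsf, after the values had been seen. The counts include the 3 members. These genes moved in both directions, where 8.72% of all genes rose and 6.62% fell. Of 9 ligand genes 3 rose, Tnfsf11 among them, and 1 fell. Tnfsf11 had the highest log2 fold change of the 9. Tnfsf14, the ligand LIGHT, read 6.71 and 6.73 in nonarthritic and 8.32 and 8.53 in arthritic pools (1.71, or at least 2.54-fold against the background guide, which its nonarthritic readings did not reach), and Tnfsf15 rose by 1.20. Tnfsf13b, the B cell survival factor BAFF, fell by 0.92 on the log2 scale. Of 20 receptor genes 6 rose and 3 fell, Tnfrsf11b being 1 of those that fell. Tnfrsf11b had the lowest log2 fold change of the 20. Tnfrsf23, a decoy receptor for TRAIL, read 9.14 and 9.09 and then 10.70 and 11.13 (1.80). The other receptors that fell were Tnfrsf17 (-0.78), found on plasma cells and under the background guide in 3 of 4 pools, and Tnfrsf19 (-0.76).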
